A study of Mus musculus with 9 samples.

Results

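The 10 genes described here encode enzymes of bile acid synthesis, chosen by name from general knowledge of the pathway as Cyp7a1, Cyp8b1, Hsd3b7, Akr1d1, Cyp27a1, Cyp7b1, Amacr, Acox2, Slc27a5 and Baat. They are 10 of the 17846 genes listed for liver RNA from 9 male wild-type mice of the strain given as C57/BL, and all 10 had enough counts to be tested. The 3 Control mice ate a normal chow diet and were sedentary, the 3 NASH mice ate the atherogenic (Ath) diet for 20 weeks and were sedentary, and the 3 NASH+Exercise mice ate the Ath diet for 20 weeks and ran on a treadmill during the last 8, from 20 weeks of age. All mice were fasted overnight before the liver was taken, and each library came from the whole liver tissue of 1 mouse. The comparisons ask how the steatohepatitis (NASH) produced by the diet, and aerobic training added to it, were accompanied by changes in hepatic transcripts. The Ath diet contains cholesterol, the substrate of the pathway, and cholate, itself a bile acid, so the effects of these constituents and of the liver disease cannot be told apart in these groups.

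Bile acid synthesis is the main route by which the liver turns cholesterol into water-soluble detergents that are secreted into bile and solubilise dietary fat. The classic pathway starts with Cyp7a1 in the endoplasmic reticulum, and the alternative pathway starts with Cyp27a1 in mitochondria and continues through Cyp7b1. Cyp8b1 adds the hydroxyl group that makes cholic acid, so its activity sets the proportion of cholic acid to muricholic acids in mice. Bile acids returning to the liver bind the nuclear receptor FXR (Nr1h4), which represses Cyp7a1 and Cyp8b1 through SHP (Nr0b2) and through the hormone FGF15 from the intestine.

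The total of the estimated counts per mouse was between 20085976 and 22495408, and CPM values are counts scaled to a common library size after TMM normalization, which corrects for differences in library composition. Control libraries had TMM factors of 0.8 to 0.976, NASH libraries 1.09 to 1.23 and NASH+Exercise libraries 0.912 to 1.08. Without these factors, all genes tested had a median change of 0.36 instead of 0.01 (log2) between NASH and Control, and of -0.23 instead of -0.03 between NASH+Exercise and NASH. The label liver was matched by the hepatocyte markers, of which 11 of 12 were listed, with a summed TPM (a level per transcript length) of 138934 to 158177 for Control mice, 124170 to 147303 for NASH mice and 111594 to 135188 for NASH+Exercise mice. Macrophage markers were called higher in NASH than in Control in 11 of 12 genes, beside 15.3% of all genes tested. Their summed TPM was 137 to 269 for Control mice, 1753 to 2100 for NASH mice and 1180 to 1472 for NASH+Exercise mice. Other marker lists had called rises in NASH in 9 of 9 tested T and NK cell genes, 5 of 7 neutrophil, 3 of 9 stellate cell, 3 of 5 cholangiocyte, 2 of 7 sinusoidal endothelial and 1 of 5 B cell genes, and no marker was at 0 in all mice of a group. The summed TPM was higher in every NASH mouse than in every Control mouse for 7 of the 7 lists other than hepatocytes. With exercise, relative to NASH, edgeR called 0 of the 65 marker genes tested, 11 had an unadjusted p under 0.05, and DESeq2 called 3. In bulk liver, fewer hepatocytes and less RNA per hepatocyte cannot be told apart. The part of these other cells in the values of the 10 genes was not tested, and the hepatocyte median is given beside theirs below.

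On the scale of TPM, on which different genes can be set side by side, Cyp8b1 was at 714 ± 253 (SD, n = 3) in Control and made up 26.8% of the summed TPM of the 10 genes. Its range overlapped that of Slc27a5, which followed at 498 ± 66.4. Cyp27a1 at 397 ± 54.9 and Hsd3b7 at 354 ± 22.9 came next, and their ranges overlapped. Baat, Amacr and Cyp7b1 had means of 194, 176 and 148 TPM, with overlapping ranges between neighbours, followed by Acox2 at 121 and Akr1d1 at 52.6. Cyp7a1, whose enzyme is rate-limiting for the classic pathway, had a mean of 6.79 ± 5.08 TPM in Control.

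In NASH, Slc27a5 was first at 450 ± 94.1 TPM and Cyp8b1 last at 4.2 ± 2.32 TPM, which was 0.244% of the summed TPM and overlapped the range of Cyp7a1 (4.9 ± 4.74). Cyp7b1 stood at 47.4 ± 10 TPM, in place 8 of 10, and its range overlapped that of Akr1d1 above it. In NASH+Exercise, Cyp7b1 had a mean of 157 ± 50.1 TPM and place 5, with a range that overlapped those of Baat above and Amacr below. Slc27a5 at 483 ± 9.26 TPM was again first, and Cyp8b1 at 5.14 ± 2.32 TPM again last, with a range overlapping that of Cyp7a1 at 12 ± 6.01 TPM.

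The TPM of the 10 genes together summed to 2508, 3034 and 2441 in the Control mice, to 1715, 1759 and 1697 in the NASH mice and to 1834, 1873 and 1862 in the NASH+Exercise mice. TPM sums carry no TMM correction. In limma on log2(TPM + 1), all genes had a median change of 0.34 in NASH against Control and -0.27 in NASH+Exercise against NASH. No pair of groups overlapped. The difference of means was -937 TPM for NASH minus Control, 133 TPM for NASH+Exercise minus NASH, and -805 TPM for NASH+Exercise minus Control. Each difference had p = 0.1 in a two-sided exact permutation test, the smallest value that 3 mice against 3 allow, and 0.1 after adjustment over the 3 tests, so none could pass 0.05. Most of the gap to Control came from 1 gene. Without Cyp8b1, a sum added after the data were seen, the means were 1947 ± 75.4, 1719 ± 31.3 and 1851 ± 17.5 TPM (SD, n = 3), a difference of -228 TPM for NASH minus Control and of 132 TPM for NASH+Exercise minus NASH. The groups still did not overlap. This sum still includes Cyp7b1, which had a mean of 47.4 TPM in NASH and 157 TPM in NASH+Exercise. A sum without Cyp7b1 was not formed, so a separation of the remaining genes was not tested.

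**Figure D1:**
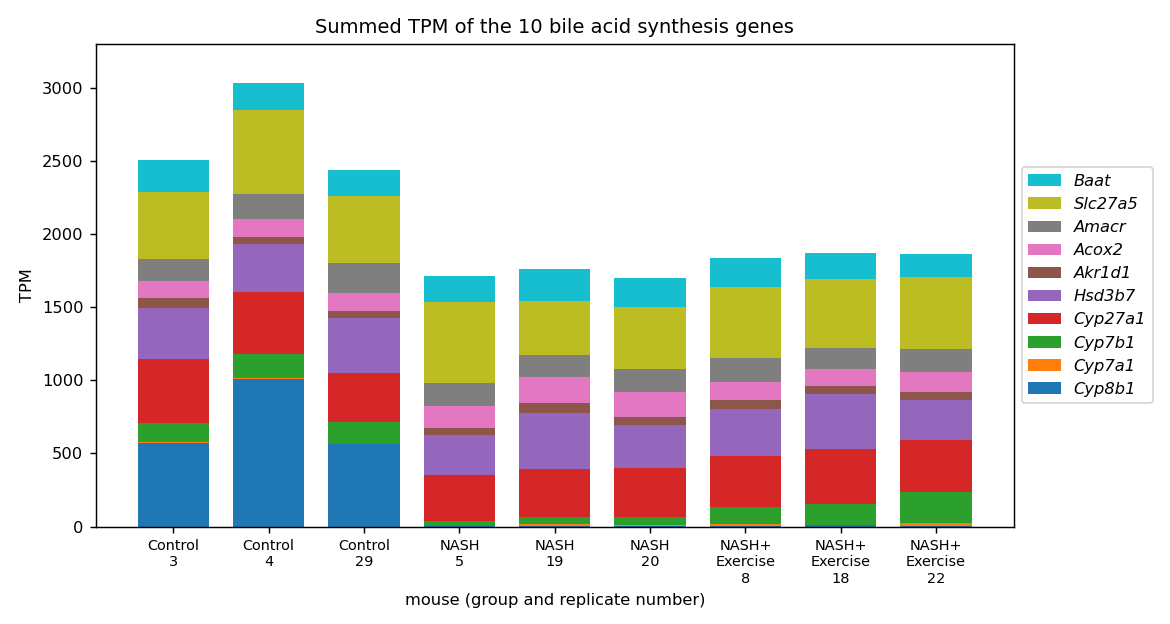
Stacked bars of TPM for the 10 bile acid synthesis genes, 1 bar per mouse, with the linear axis starting at 0. Cyp8b1 forms the lowest block of the Control bars, at 563 to 1006 TPM, and is too thin to see in the other 6 mice, whose bars end between 1697 and 1873 TPM.

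Between NASH and Control, 2 of the 10 genes were called lower, Cyp8b1 and Cyp7b1, and 0 were called higher. A call needs an adjusted p under 0.05 in the quasi-likelihood test of edgeR, adjusted by Benjamini-Hochberg over 13619 genes, and an absolute log2 fold change above 1. Of all genes tested, 3.03% were called lower and 15.3% higher. The fitted log2 fold change was below 0 for 10 of 10 genes, with a median of -0.62 beside 0.01 over all genes and -0.47 over the hepatocyte markers, although Akr1d1 and Acox2 turned to 0.04 and 0.36 when only library size was corrected. The adjusted p was under 0.05 for 6 genes, adding Hsd3b7, Cyp27a1, Amacr and Baat, whose changes stayed within the fold threshold. The CPM of the NASH and Control mice did not overlap for 6 of the 10 genes, and for 49.6% of all genes tested.

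Between NASH+Exercise and NASH, 1 gene was called, Cyp7b1, which was higher, while 0.103% of all genes tested were called higher and 0.0367% lower. The fitted change was above 0 for 9 of 10 genes, with a median of 0.38 beside -0.03 over all genes and 0.23 over the hepatocyte markers. Of these 9, Baat was at -0.06 when only library size was corrected, and Akr1d1 and Baat were at -0.04 and -0.15 in limma on log2(TPM + 1). Groups did not overlap in 5 of 10 genes, with 24.1% over all genes. Between NASH+Exercise and Control, Cyp8b1 was called lower and no other gene was called, with 3.07% of all genes called lower and 10.4% higher, and groups did not overlap in 1 of 10 genes, with 38.6% over all genes. The median was -0.23 beside 0.00 over all genes and -0.24 over the hepatocyte markers. Hsd3b7, Akr1d1, Cyp27a1, Amacr, Acox2, Slc27a5 and Baat had fitted changes against Control between -0.32 (Amacr) and -0.06 (Akr1d1) in the NASH+Exercise mice, with adjusted p in edgeR from 0.14 to 0.83. The 3 comparisons share mice, so they are not separate evidence.

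**Figure D2:**
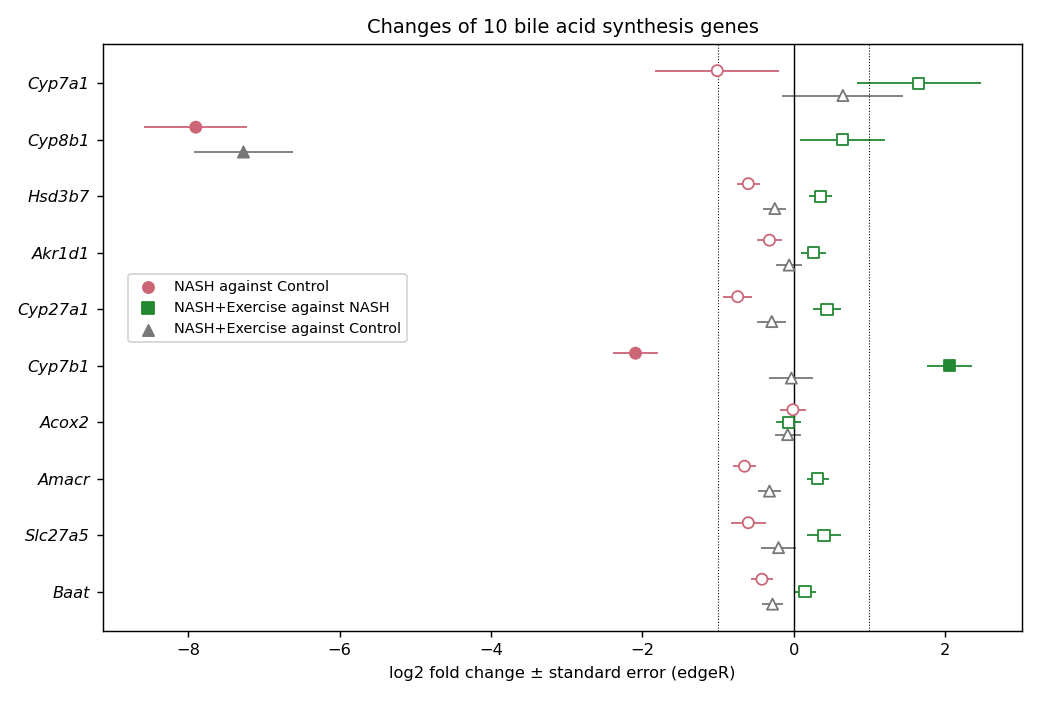
Fitted log2 fold change with its standard error (edgeR, 9 mice) for the 10 genes in the 3 comparisons, with filled symbols for called changes and dotted lines at -1 and 1. Cyp8b1 lies near -8 and -7 against Control, Cyp7b1 lies at -2.09 in NASH against Control and at 2.06 in NASH+Exercise against NASH, and the other points lie between -1.01 and 1.65.

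The classic pathway begins with Cyp7a1 (Entrez Gene 13122, chr4:6265612-6275632 of GRCm38.p6, minus strand, 6 exons), the cholesterol 7-alpha-hydroxylase. It was at 12.4, 34.5 and 4.75 CPM in Control mice 3, 4 and 29, at 2.12, 17 and 6.46 CPM in NASH mice 5, 19 and 20, and at 30.1, 11.3 and 39.3 CPM in NASH+Exercise mice 8, 18 and 22. The 3 ranges overlapped, and the highest mouse of a group was 7.28 (Control), 8 (NASH) and 3.48 (NASH+Exercise) times the lowest. No comparison of Cyp7a1 was called in edgeR with Benjamini-Hochberg adjustment. The log2 fold change was -1.01 (SE 0.82, adjusted p = 0.381) in NASH against Control, 1.65 (SE 0.82, adjusted p = 0.377) in NASH+Exercise against NASH and 0.65 (SE 0.80, adjusted p = 0.618) in NASH+Exercise against Control. Leaving out 1 mouse at a time moved the first value between -2.06 and -0.01 and the middle one between 1.2 and 2.67. The spread of Cyp7a1 within groups was the widest of the 10 genes in each group, with a coefficient of variation of 89.8%, 89.6% and 53.1% for Control, NASH and NASH+Exercise.

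Cyp8b1 (Entrez Gene 13124, chr9:121914356-121916305, minus strand, 1 exon), the sterol 12-alpha-hydroxylase that directs synthesis to cholic acid, fell with the Ath diet in both diet groups. It was at 746, 1537 and 651 CPM in the Control mice, at 1.54, 5.24 and 5.44 CPM in the NASH mice, and at 2.84, 8.83 and 7.41 CPM in the NASH+Exercise mice. Every Control mouse was far above every mouse on the Ath diet, and the 2 Ath diet groups overlapped. Cyp8b1 had a log2 fold change of -7.90 (SE 0.68, edgeR, Benjamini-Hochberg adjusted p = 3.52e-05) in NASH against Control, a 240-fold lower level. The value was -7.27 (SE 0.66, edgeR, adjusted p = 8.48e-05) in NASH+Exercise against Control, or 154-fold lower. Between NASH+Exercise and NASH it was 0.64 (SE 0.56, edgeR, adjusted p = 0.633), which was not called.

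The 250 bases before the start of Cyp8b1 are shown because this gene had the largest change of the 10, together with those of Hsd3b7, a gene of the classic pathway that was not called, for comparison. Both are from RefSeq on GRCm38.p6, 5′ to 3′ on the strand of the gene, Cyp8b1 at chr9:121916306-121916555 (minus) and Hsd3b7 at chr7:127800359-127800608 (plus), and each ends at the base before the start of its gene. Capitals mark matches to CAAGGNC, the core of the site of LRH-1 (Nr5a2), and to CAAAGTC, the core of a site of HNF4 alpha (Hnf4a). Both receptors are known activators of Cyp8b1, and SHP binds to them and represses.
Cyp8b1: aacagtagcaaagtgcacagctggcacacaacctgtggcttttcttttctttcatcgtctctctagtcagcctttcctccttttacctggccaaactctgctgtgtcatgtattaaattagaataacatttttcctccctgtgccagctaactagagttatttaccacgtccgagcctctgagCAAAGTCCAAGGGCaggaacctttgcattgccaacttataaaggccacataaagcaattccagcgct
Hsd3b7: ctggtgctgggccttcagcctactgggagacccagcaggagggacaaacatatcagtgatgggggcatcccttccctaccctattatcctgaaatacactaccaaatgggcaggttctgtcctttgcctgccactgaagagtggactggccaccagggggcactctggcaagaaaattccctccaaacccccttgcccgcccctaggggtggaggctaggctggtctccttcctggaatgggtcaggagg
In Cyp8b1, CAAAGTC ran from 67 to 61 and CAAGGGC from 60 to 54 bases before the start, next to each other without overlap. Both strands were searched. Of 32851 promoters of this length, 15% held CAAGGNC, 3.84% held CAAAGTC and 0.636% held both. The RefSeq table matched 5 of the 10 genes with 6 windows (Cyp8b1, Cyp27a1, Hsd3b7, Akr1d1 and 2 of Acox2), and 1 of the 6 windows held a match. The windows of Cyp27a1, Akr1d1 and 1 of those of Acox2 precede other transcript starts of the table and lie wholly (Cyp27a1) or partly within the coordinates given here for the gene. Entries were missing for Cyp7a1, Cyp7b1, Slc27a5, Baat and Amacr. A match of letters is a description and not evidence of binding.

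Hsd3b7 (Entrez Gene 101502, chr7:127800609-127803802, plus strand, 7 exons) encodes the dehydrogenase that acts on the sterol ring after either 7-alpha-hydroxylase. It was at 431, 472 and 407 CPM in Control, at 254, 324 and 287 CPM in NASH and at 320, 431 and 348 CPM in NASH+Exercise. NASH lay below Control in every mouse, and NASH+Exercise overlapped both groups. Its log2 fold change in NASH against Control was -0.60 (SE 0.15, edgeR, adjusted p = 0.0117), within the fold threshold. The change with exercise, relative to NASH, was 0.35 (SE 0.15, edgeR, adjusted p = 0.317). Akr1d1 (Entrez Gene 208665, chr6:37529978-37574921, plus strand, 9 exons), the reductase that gives the ring its bent shape, was at 119, 94.1 and 72.9 CPM in Control, at 68.6, 84.4 and 75.6 CPM in NASH and at 92.5, 90 and 91.1 CPM in NASH+Exercise. The NASH+Exercise mice lay above all NASH mice and within the Control range. Its log2 fold changes were -0.32 (SE 0.17, edgeR, adjusted p = 0.157) in NASH against Control and 0.26 (SE 0.17, edgeR, adjusted p = 0.485) in NASH+Exercise against NASH, with no call.

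**Figure D3:**
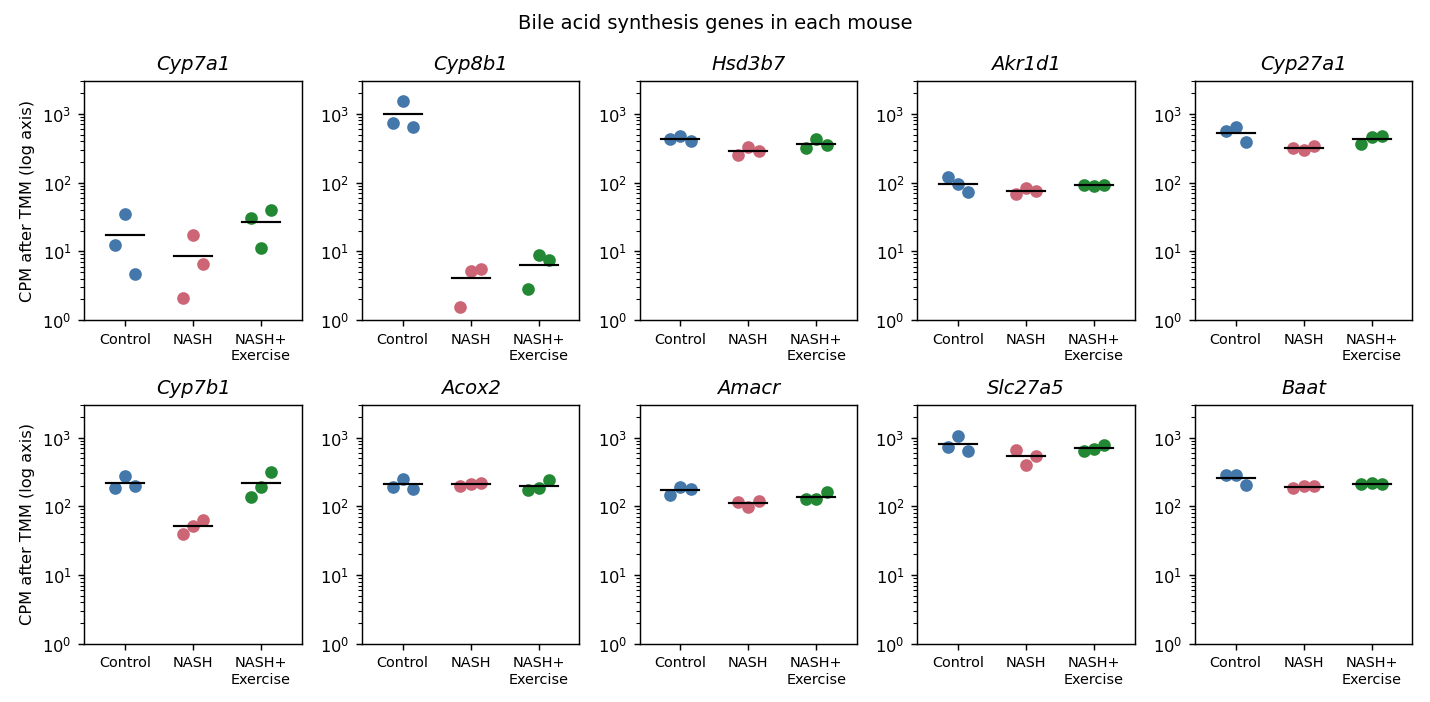
CPM after TMM on a log axis for the 10 genes, with 1 point per mouse and a line at the mean of each group of 3. Cyp8b1 separates the Control mice (651 to 1537 CPM) from all 6 mice on the Ath diet (1.54 to 8.83 CPM), and Cyp7b1 separates the NASH mice (40.1 to 62.6 CPM) from the mice of both other groups (137 to 316 CPM).

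In the alternative pathway, Cyp7b1 (Entrez Gene 13123, chr3:18071944-18243890, minus strand, 6 exons), the oxysterol 7-alpha-hydroxylase, fell in NASH and rose in NASH+Exercise. It was at 187, 276 and 196 CPM in Control, at 40.1, 52.2 and 62.6 CPM in NASH and at 137, 193 and 316 CPM in NASH+Exercise. All NASH mice were below all other mice, and the Control and NASH+Exercise ranges overlapped. Cyp7b1 had a log2 fold change of -2.09 (SE 0.30, edgeR, adjusted p = 0.000572) in NASH against Control, or 4.26-fold lower, and the call held without any 1 mouse at -2.25 to -1.91. Against NASH, the NASH+Exercise mice had a change of 2.06 (SE 0.30, edgeR, adjusted p = 0.0405), or 4.18-fold higher. Against Control they had a change of -0.03 (SE 0.29, edgeR, adjusted p = 0.959), with a sign that depended on the scaling.

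Whether Cyp7b1 was called in NASH+Exercise against NASH varied with the test and with the mice included. In edgeR, its adjusted p was 0.0665, 0.0594 and 0.0587 without Control mouse 3, 4 or 29, 0.134, 0.155 and 0.129 without NASH mouse 5, 19 or 20, and 0.107 and 0.101 without NASH+Exercise mouse 18 or 22. It was 0.0256 without NASH+Exercise mouse 8, the lowest of its group. It was 0.0712 when the 6 mice of the comparison were fitted alone and 0.629 when glmTreat tested for a change beyond the fold threshold. DESeq2 gave 2.56e-09 on 9 mice and 2.66e-11 on the 6 mice of the comparison. The log2 fold change stayed between 1.68 and 2.31 in these settings.

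Cyp27a1 (Entrez Gene 104086, chr1:74713148-74737897, plus strand, 9 exons) encodes the mitochondrial sterol 27-hydroxylase, which starts the alternative pathway and also oxidises the side chain of intermediates of the classic one. It was at 565, 638 and 385 CPM in Control, at 315, 294 and 344 CPM in NASH and at 370, 454 and 472 CPM in NASH+Exercise. NASH lay below every mouse of the other groups, as for Cyp7b1, but the gaps were small. Cyp27a1 had a log2 fold change of -0.74 (SE 0.19, edgeR, adjusted p = 0.0121) in NASH against Control and 0.44 (SE 0.19, edgeR, adjusted p = 0.3) in NASH+Exercise against NASH, with neither called. In summed TPM the alternative pair was at 486 to 583 (Control), 352 to 390 (NASH) and 463 to 568 (NASH+Exercise), while the 4 classic genes were at 989 to 1395, 324 to 467 and 350 to 444.

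The genes of side chain shortening and conjugation were not called in any comparison. Amacr (Entrez Gene 17117, chr15:10981756-10996624, plus strand, 5 exons), the racemase that prepares the side chain for peroxisomal oxidation, was at 147, 193 and 177 CPM in Control, at 114, 97.8 and 118 CPM in NASH and at 127, 127 and 159 CPM in NASH+Exercise. The NASH mice were the lowest 3. The log2 fold change of Amacr was -0.65 (SE 0.15, edgeR, adjusted p = 0.00653) in NASH against Control, within the fold threshold, and 0.32 (SE 0.15, edgeR, adjusted p = 0.332) in NASH+Exercise against NASH. Acox2 (Entrez Gene 93732, chr14:8225511-8259019, minus strand, 15 exons), the peroxisomal oxidase of the next step, was at 193, 253 and 181 CPM in Control, at 195, 209 and 221 CPM in NASH and at 172, 183 and 239 CPM in NASH+Exercise. The groups overlapped throughout, with log2 fold changes of -0.01 (SE 0.17, edgeR, adjusted p = 0.977) and -0.07 (SE 0.17, edgeR, adjusted p = 0.886) in the same 2 comparisons. The scale mattered for Acox2: by TPM it was at 121 ± 6.45 (Control), 165 ± 14.7 (NASH) and 126 ± 11.3 (NASH+Exercise), and limma on log2(TPM + 1) gave 0.44 in NASH against Control (SE 0.10, adjusted p = 0.00734), within the fold threshold.

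Slc27a5 (Entrez Gene 26459, chr7:12988346-12998192, minus strand, 10 exons), the ligase that activates bile acids with coenzyme A, was at 717, 1051 and 638 CPM in Control, at 662, 399 and 530 CPM in NASH and at 627, 691 and 782 CPM in NASH+Exercise. NASH mouse 5 was within the range of both other groups. The log2 fold change was -0.60 (SE 0.23, edgeR, adjusted p = 0.0643) in NASH against Control and 0.40 (SE 0.23, edgeR, adjusted p = 0.433) in NASH+Exercise against NASH. Baat (Entrez Gene 12012, chr4:49489416-49507915, minus strand, 4 exons), which joins the activated acid to an amino acid, was at 283, 284 and 207 CPM in Control, at 182, 196 and 199 CPM in NASH and at 210, 218 and 212 CPM in NASH+Exercise. Its NASH mice lay below all others by a small gap. The log2 fold change of Baat was -0.42 (SE 0.14, edgeR, adjusted p = 0.0371), within the fold threshold, and 0.15 (SE 0.14, edgeR, adjusted p = 0.655) in the same 2 comparisons, and both values had the other sign in limma on log2(TPM + 1), at 0.03 and -0.15. As summed TPM, which has no TMM correction, the 4 genes were at 944 to 1056 (Control), 914 to 1039 (NASH) and 912 to 969 (NASH+Exercise), and the ranges overlapped.

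Ratios within a mouse were formed from TPM with 0.1 added. Cyp8b1 over Cyp7a1 had geometric means of 123 (Control), 1.06 (NASH) and 0.451 (NASH+Exercise). The log2 ratio differed from Control by -6.86 for NASH and by -8.09 for NASH+Exercise, without overlap between the groups (p = 0.1 each, exact permutation test, the smallest possible with 3 mice against 3, 0.45 after adjustment over 9 tests). Cyp7b1 over Cyp7a1 was 26.3, 13.2 and 14.1, and the groups overlapped. Its log2 ratio differed by -0.99 between NASH and Control and by 0.09 between NASH+Exercise and NASH (p = 0.5 and 1, exact permutation test). Cyp27a1 over Cyp7a1 was 70.5, 92.2 and 33.4, with overlap and differences of 0.39 and -1.47 in the same order (p = 0.8 and 0.2, exact permutation test). The wide spread of Cyp7a1 entered each of these ratios, with an SD of 0.78 to 1.52 on the log2 scale within groups.

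Of 15 other genes of bile acid synthesis, 2 were called higher and 6 lower in NASH against Control, beside 15.3% and 3.03% of all genes tested. When only library size was corrected, 2 were called higher and 3 lower. Their median log2 fold change was -0.74, beside 0.01 over all genes and -0.47 over the hepatocyte markers. Cyp2c70, which makes the muricholic acids of mice, rose from 172 ± 36.5 CPM in Control to 591 ± 84.4 CPM in NASH (SD, n = 3, log2 fold change 1.79, SE 0.23, edgeR, adjusted p = 0.000179). It was at 1121 ± 282 CPM in NASH+Exercise, where the change against NASH was 0.92 (SE 0.22, edgeR, adjusted p = 0.128) and that against Control was 2.71 (SE 0.23, edgeR, adjusted p = 3.10e-05). Cyp8b1 and Cyp2c70, which act toward cholic acid and toward muricholic acids, had called changes in opposite directions in both Ath diet groups against Control. Ch25h, the cholesterol 25-hydroxylase, had 0 counts in all Control mice, 11, 13 and 7 in NASH and 9, 6 and 15 in NASH+Exercise, which is at least 2.62-fold and 2.93-fold higher against a floor of 3 counts per library. Abcd3, a peroxisomal importer of bile acid precursors, fell from 516 ± 66.6 to 171 ± 18.9 CPM (log2 fold change -1.59, edgeR, adjusted p = 2.68e-05), and Cyp46a1, the cholesterol 24-hydroxylase, fell from 6.98 ± 0.988 to 2.12 ± 0.306 CPM (-1.72, edgeR, adjusted p = 0.00254). Between NASH+Exercise and NASH, edgeR called 0 of the 15 and DESeq2 0, with 2 at an unadjusted p under 0.05. In NASH+Exercise against Control, edgeR called 2 higher and 3 lower, beside 10.4% and 3.07% of all genes.

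Of 12 regulators, 0 were called in NASH against Control by edgeR or DESeq2, while edgeR called 18.3% of all genes tested. In edgeR, 6 of the 12 had an unadjusted p under 0.05. Their median log2 fold change over the 12 was -0.26, beside 0.01 over all genes. Nr1h4 (FXR) was at 157 ± 33.9 CPM (Control), 87 ± 20 (NASH) and 87.2 ± 16.1 (NASH+Exercise) (SD, n = 3), with a log2 fold change of -0.85 in NASH against Control (SE 0.21, edgeR, adjusted p = 0.0101) that was within the fold threshold. Nr0b2 (SHP) was at 45.8 ± 7.96, 67.3 ± 16.1 and 44.6 ± 4.98 CPM, with 0.56 (SE 0.19, edgeR, adjusted p = 0.0454) in NASH against Control and -0.59 (SE 0.19, edgeR, adjusted p = 0.209) in NASH+Exercise against NASH. Nr5a2 (LRH-1) was at 55.1 ± 17.5, 50.5 ± 2.16 and 44.1 ± 6.44 CPM, with no call in any comparison. With exercise, relative to NASH, 0 of the 12 were called by edgeR or DESeq2, and 4 had an unadjusted p under 0.05. Klb, the co-receptor for FGF15, was called lower in NASH+Exercise against Control (-1.16, edgeR, adjusted p = 0.000341), at 29.1 ± 2.64 CPM (Control), 17.4 ± 2.03 (NASH) and 13 ± 2.1 (NASH+Exercise).

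Of 11 bile acid transporters tested, 1 was called higher and 2 lower in NASH against Control, beside 15.3% and 3.03% of all genes tested. When only library size was corrected, 2 were called higher and 0 lower. Slc51b, a subunit of the basolateral exporter, had 4, 2 and 4 counts in Control, 84, 66 and 30 in NASH and 32, 40 and 37 in NASH+Exercise (log2 fold change 3.74, SE 0.48, edgeR, adjusted p = 0.000188 in NASH against Control). Slc10a1, which takes up conjugated bile acids from blood, fell from 628 ± 15.9 to 275 ± 51.5 CPM (-1.19, SE 0.15, edgeR, adjusted p = 0.000203). Slco1a1, an uptake carrier of organic anions, fell from 215 ± 66.4 to 106 ± 45.6 CPM (-1.02, SE 0.31, edgeR, adjusted p = 0.0276). That change was just beyond the fold threshold, and the ranges overlapped, at 138 to 255 CPM in Control and 76.1 to 158 CPM in NASH. Comparing NASH+Exercise with NASH, edgeR called 0 and DESeq2 called 1, with 3 at an unadjusted p under 0.05. Slco1a4, of the same family, was at 75.5 ± 13.8, 39.7 ± 13.3 and 15.7 ± 4.47 CPM in the 3 groups and was called lower in NASH+Exercise against Control (-2.26, edgeR, adjusted p = 0.000367), as was Abcc3 (-1.19, edgeR, adjusted p = 0.0042), which was named after its values were seen. With library size only, 1 transporter was called higher and 1 lower in that comparison, instead of 1 and 2. Of all genes tested, 10.4% were called higher and 3.07% lower there after TMM.

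**Figure D4:**
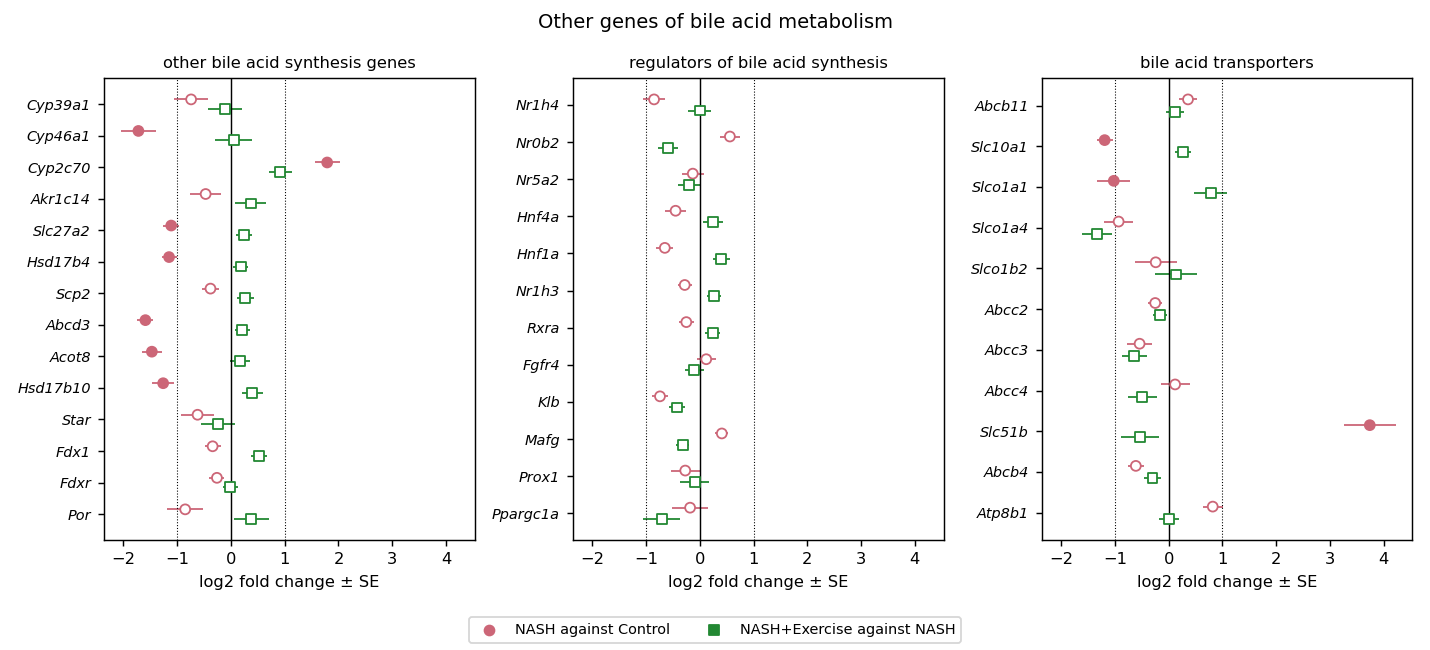
Fitted log2 fold change with its standard error (edgeR, 9 mice) for other bile acid synthesis genes, regulators and transporters in 2 comparisons, with filled symbols for called changes and dotted lines at -1 and 1. Filled symbols occur for NASH against Control, at 1.79 for Cyp2c70 and 3.74 for Slc51b on the right, and none for NASH+Exercise against NASH, and Ch25h, at 0 counts in Control, is not drawn.

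Cyp7b1 is known for higher expression in male than in female mouse liver, so other sex-biased genes were set beside it. Both lists were chosen with earlier results of these data known. Of 12 male-biased genes, 5 were called lower and 1 higher in NASH against Control, beside 3.03% and 15.3% of all genes tested. In NASH+Exercise against NASH, 2 were called higher, beside 0.103% of all genes. The fitted change there was above 0 for 12 of 12, with a median of 0.75 beside -0.03 over all genes. Susd4 was at 39.9 ± 12.9 CPM (Control), 3.32 ± 0.761 (NASH) and 17.4 ± 5.54 (NASH+Exercise) (SD, n = 3). Its log2 fold changes were -3.59 (SE 0.31, edgeR, adjusted p = 2.68e-05) in NASH against Control and 2.39 (SE 0.31, edgeR, adjusted p = 0.0405) in NASH+Exercise against NASH. The other called gene was Nudt7, named after its values were seen, at 94.6 ± 7.67 CPM in NASH and 361 ± 83.1 in NASH+Exercise. Elovl3 and Cyp2d9 were called lower in NASH against Control (-2.82 and -1.50, edgeR, adjusted p = 0.0236 and 0.00642). Neither was called in NASH+Exercise against NASH (0.72 and 0.59, edgeR, adjusted p = 0.706 and 0.428). Mup20, also named after its values were seen, was the gene called higher in NASH against Control (1.21, edgeR, adjusted p = 0.00331). Serpina1e, whose reads may be shared with near-identical copies, was at 11676 ± 8674, 1813 ± 327 and 12388 ± 7457 CPM in the 3 groups, with a change of 2.77 in NASH+Exercise against NASH that was not called (SE 0.60, edgeR, adjusted p = 0.122). Of 6 female-biased genes tested, 1 was called higher and 2 lower in NASH against Control, beside 15.3% and 3.03% of all genes. In NASH+Exercise against NASH edgeR called 0 and DESeq2 3, with 4 at an unadjusted p under 0.05. There 6 of 6 fitted changes were below 0, with a median of -1.67 beside -0.03 over all genes. In NASH against Control, Cyp2a4 was called higher (2.55, SE 0.84, edgeR, adjusted p = 0.039). Its counts were low, at 8, 8 and 13 in Control and 67, 141 and 19 in NASH. Acot3 and Cyp17a1 were called lower (-4.20 and -2.07, edgeR, adjusted p = 0.000897 and 0.00305). In NASH+Exercise against Control, 4 of the 6 were called lower, beside 3.07% of all genes. Among them were Acot3, Cyp17a1 and Abcd2 (-7.76, -2.75 and -2.06, edgeR, adjusted p = 0.000174, 0.00115 and 0.00722).

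The level of a gene within a group also varied by mouse. Control mouse 4 had the highest CPM of its group in 9 of 10 genes and Control mouse 29 the lowest in 8, but by TPM these counts were 5 and 4. NASH mouse 5 was the lowest of its group in 7 genes by CPM and 8 by TPM. NASH+Exercise mouse 8 was the lowest in 8 genes by CPM and 3 by TPM.

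As a description over the 9 mice, which share the group differences and the library scaling, the genes outside the list with the log2 CPM most like that of Cyp7b1 were Mup7, Hspe1 and Mup1 (Pearson r of 0.981, 0.974 and 0.970). Mup7 and Mup1 belong to a family of near-identical copies, so their counts are uncertain. For Cyp7a1 they were Pex2, Pdzd11 and Tmub1 (0.944, 0.932 and 0.917). For Cyp8b1 they were Cpox, Tmem243 and Ppp2ca (0.998, 0.991 and 0.985). The r values of Cyp8b1 include the gap between the Control mice and the 6 other mice, and those of Cyp7b1 the gap between the NASH mice and the 6 other mice.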

How the data were processed

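Livers of 9 mice (3 Control, 3 NASH, 3 NASH+Exercise, grouped by their labels) were sequenced as 1 mRNA library per mouse. The authors deposited estimated counts per gene, which are not normalized, together with FPKM and TPM values, which scale reads by transcript length and library size. The submitters' processing notes name HISAT2 2.1.0, Bowtie2 2.2.5, RSEM 1.2.8 and GRCm38.p6, without their roles, and whether strand was used in counting is not given in the sources used here. RSEM divides reads shared between similar genes by estimation, so near-identical copies are uncertain. Of the values in a library, 29.0 to 32.8% were not whole and were rounded. Entrez Gene identifiers were matched to symbols and coordinates in a RefSeq table of GRCm38.p6 (17728 of 17846), and exons and strands came from GENCODE. Predicted genes of the RefSeq table overlap Cyp7b1, Akr1d1 and Baat, and none of these predicted genes is among the genes listed.

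Counts were tested with edgeR 4.0.16 in R 4.3.3 (filterByExpr with at least 10 counts and a total of 15, TMM, robust quasi-likelihood fit on 9 mice together, 1 term for group, 6 residual degrees of freedom, Benjamini-Hochberg over 13619 genes). Called genes had an adjusted p below 0.05 and a log2 fold change above 1 or below -1. Nothing states that the mice of a group came from separate litters or cages, and p-values measure only the spread between these mice. Summed TPM and TPM ratios (pseudocount 0.1) were compared by two-sided exact permutation tests, and FPKM sums were an alternative. Lower bounds against 0 counts cover only the error of counting, because reads without molecular identifiers are not independent molecules. Likeness was the Pearson correlation of log2 CPM with a prior count of 2.

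The 10 genes, the lists (other bile acid synthesis genes, regulators, transporters, male-biased and female-biased liver genes, and markers of hepatocytes and 7 other cell types) and the tests were chosen with earlier results of these data known. Genes named beyond the 10 were those called in any comparison, at most 4 per list by size of change in NASH against Control, with Nr1h4, Nr0b2 and Nr5a2 always and any exception marked in the text. The edgeR, DESeq2, limma and glmTreat fits were tested on simulated data, for the comparison of NASH+Exercise with NASH only. The permutation tests, TPM sums and ratios, lower bounds, correlations, promoter search and other scalings and filters were not tested in that way. Alternatives were DESeq2 1.42.0, edgeR on 6 mice, other scalings and filters, a test without the robust option, adjusted p alone, glmTreat, limma 3.58.1 on log2(TPM + 1) and log2(TPM + 0.1) of genes with a mean TPM of at least 1, and each mouse left out.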

Additional observations from a re-analysis of the deposited data

How the results depend on the processing

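No paired analysis was possible because the groups share no replicate numbers. Over all alternatives, 581 of 630 log2 fold changes of the 10 genes kept their direction and their side of the threshold. The number of the 10 genes called in NASH against Control was 6 instead of 2 with the adjusted p alone. For NASH+Exercise against NASH it was 0 instead of 1 with edgeR on 6 mice and with glmTreat, and 0 to 1 with 1 mouse left out. Other bile acid synthesis genes called in NASH against Control numbered 5 instead of 8 with library size only. For NASH+Exercise against NASH, DESeq2 called 1 transporter instead of 0, 4 male-biased genes instead of 2 and 3 female-biased genes instead of 0, and library size only gave 1 male-biased gene. Why these counts moved was not tested, except that the adjusted p alone drops the fold threshold and that leaving out mice leaves fewer samples.

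Changes of sign occurred among values that were not called. In NASH against Control with library size only, Akr1d1 was 0.04 and Acox2 0.36, with limma on log2(TPM + 1) Akr1d1 was 0.13, Acox2 0.44 and Baat 0.03, with log2(TPM + 0.1) they were 0.14, 0.44 and 0.03, and with 10 counts in every mouse Acox2 was 0.05. In NASH+Exercise against NASH, Baat was -0.06 with library size only, and in limma at either pseudocount Baat was -0.15 and Akr1d1 -0.04. For NASH+Exercise against Control, Cyp7b1 was 0.01 with 6 mice and with 10 counts in every mouse. With library size only Cyp7b1 was 0.10, Akr1d1 0.09 and Acox2 0.07, and in limma at either pseudocount they were 0.04, 0.09 and 0.06. With 1 mouse left out, Acox2 ranged from -0.14 to 0.14 in NASH against Control and from -0.23 to 0.03 in NASH+Exercise against NASH. For NASH+Exercise against Control, Cyp7b1 ranged from -0.41 to 0.21, Akr1d1 from -0.24 to 0.13, Acox2 from -0.24 to 0.10 and Slc27a5 from -0.36 to 0.07. The log2 ratio of Cyp27a1 over Cyp7a1 ranged from -0.35 to 1.16 in NASH against Control and that of Cyp7b1 over Cyp7a1 from -0.61 to 0.66 in NASH+Exercise against NASH. With library size only, 2791 genes were called higher and 219 lower in NASH against Control, instead of 2082 and 412.

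Depth was lowest for Cyp8b1 in the mice on the Ath diet, at 37 to 187 counts, and for Cyp7a1, at 51 to 806 counts over all mice. Groups of 3 limit the detection of small changes.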
